A study of Homo sapiens with 40 samples.

Results

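The carcinoembryonic antigen-related cell adhesion molecules CEACAM1, CEACAM5, CEACAM6 and CEACAM7 and the membrane-bound mucins MUC1, MUC4, MUC15, MUC16 and MUC20 were followed through RNA-seq of human breast cell lines. These 9 genes, of 60708 genes counted, were chosen by symbol, with earlier results of the same libraries known, so the number of them that passes a test describes the list and supports nothing beyond it. RNA was sequenced from 24 libraries, 3 in each of 8 groups, while the 16 ATAC-seq samples of the series were not analysed here. Fragments counted on genes numbered 14124688 to 38406952 per library. Levels are in CPM, the usual count per library size, here after TMM scaling of the sizes, and a value after ± is the SD of the 3 libraries of a group.

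MI-spheres are 3D cultures of MCF-10A, an immortalised, non-tumorigenic mammary epithelial line, grown in ultra-low attachment plates. MII-spheres are cultures of the same kind of MCF-10AneoT, the HRAS-transformed derivative of that line. Each line was left unstimulated (Ctrl) or stimulated with TGFβ1 at 2.5 ng/ml for 16 h. MDA-MB-231, a triple-negative breast cancer line with mesenchymal features, was grown as monolayers without added TGFβ and sequenced as WT cells, as SLUG KO cells made with Cas9 and 1 guide to the start of exon 1 of SNAI2 and expanded from single-cell colonies, after transfection with siRNAs against SMAD2, SMAD3 and SMAD4 (siSMAD2/3/4), or after transfection with a scrambled siRNA (Csi). The number of SLUG KO clones behind the 3 libraries is not given in the sources used here. The siSMAD2/3/4 and Csi libraries form a sequencing batch of their own, so batch and transfection cannot be told apart from any difference between them and the WT or SLUG KO libraries. The 3 libraries of a group are separate samples by their labels, which do not say whether they came from separate cultures, and p-values measure only the spread between these libraries.

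CEACAMs are immunoglobulin-like adhesion proteins of epithelial surfaces. CEACAM1 spans the membrane and signals through inhibitory tyrosine motifs in its cytoplasmic tail, whereas CEACAM5, which is the tumour marker carcinoembryonic antigen, CEACAM6 and CEACAM7 are tethered to the outer membrane by a lipid anchor. Membrane mucins carry long, heavily O-glycosylated extracellular stretches that shield the apical surface of glandular cells, and the extracellular parts of MUC1 and MUC16 are shed and measured in blood as the tumour antigens CA15-3 and CA125.

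CEACAM7, CEACAM5, CEACAM6 and CEACAM1 lie on the long arm of chromosome 19 of GRCh38, at chr19:41673303-41706976 (minus strand), chr19:41708585-41730433 (plus), chr19:41750977-41772211 (plus) and chr19:42507304-42561234 (minus) in the annotation of the counts. MUC16 lies on the same chromosome at chr19:8848844-8981342 (minus), MUC20 and MUC4 lie side by side at chr3:195720884-195741123 (plus) and chr3:195746765-195811973 (minus), MUC1 lies at chr1:155185824-155192916 (minus) and MUC15 at chr11:26559032-26572263 (minus). RefSeq promoter windows of 300 bases, around a transcript start on GRCh38.p14, were found for 7 of the 9 genes. Those of the 3 abundant CEACAMs and of MUC1 are shown because these genes moved differently in the comparisons described here. Capitals mark CAGACA or its complement TGTCTG, letters found in SMAD binding sites, and CAGGTG or its complement CACCTG, an E-box of the kind bound by SLUG. The windows are CEACAM5 at chr19:41708376-41708675 (plus strand), CEACAM6 at chr19:41755280-41755579 (plus), CEACAM1 at chr19:42528432-42528731 (minus) and MUC1 at chr1:155192866-155193165 (minus), each written in the direction of transcription. Those of CEACAM5 and MUC1 span the start of the counted gene, while those of CEACAM6 and CEACAM1 lie inside the counted gene, away from its outermost start.
CEACAM5: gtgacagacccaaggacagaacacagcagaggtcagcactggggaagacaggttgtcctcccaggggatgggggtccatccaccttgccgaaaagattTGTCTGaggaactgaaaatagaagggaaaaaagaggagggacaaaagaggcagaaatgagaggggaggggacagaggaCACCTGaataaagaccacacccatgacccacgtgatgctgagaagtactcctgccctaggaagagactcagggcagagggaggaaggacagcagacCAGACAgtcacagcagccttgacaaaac
CEACAM6: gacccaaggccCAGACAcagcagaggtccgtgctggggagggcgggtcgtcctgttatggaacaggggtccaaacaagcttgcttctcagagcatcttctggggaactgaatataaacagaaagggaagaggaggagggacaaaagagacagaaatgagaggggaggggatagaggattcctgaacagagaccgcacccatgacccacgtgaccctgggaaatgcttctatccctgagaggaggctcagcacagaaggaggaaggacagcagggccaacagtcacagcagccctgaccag
CEACAM1: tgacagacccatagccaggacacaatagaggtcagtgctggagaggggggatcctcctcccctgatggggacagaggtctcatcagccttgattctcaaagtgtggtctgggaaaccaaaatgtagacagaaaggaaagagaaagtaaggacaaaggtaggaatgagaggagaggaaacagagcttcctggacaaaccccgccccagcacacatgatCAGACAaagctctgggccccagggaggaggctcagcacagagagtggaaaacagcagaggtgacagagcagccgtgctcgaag
MUC1: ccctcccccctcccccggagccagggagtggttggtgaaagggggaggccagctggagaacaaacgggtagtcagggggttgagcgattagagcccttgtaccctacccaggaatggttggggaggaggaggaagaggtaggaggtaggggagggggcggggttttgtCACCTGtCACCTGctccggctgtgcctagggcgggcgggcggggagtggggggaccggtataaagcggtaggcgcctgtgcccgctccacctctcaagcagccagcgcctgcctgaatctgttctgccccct

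CEACAM5 held 2 matches to CAGACA and 1 to CAGGTG, CEACAM6 and CEACAM1 held 1 match to CAGACA each, and MUC1 held 2 matches to CAGGTG separated by 1 base. MUC16 had windows at chr19:9065702-9066001 and chr19:9010360-9010659 (both minus), outside the counted gene and not shown. The former held 1 match to CAGACA and 1 to CAGGTG, the latter 1 to CAGGTG. Of 34943 RefSeq promoter windows of the same length, 16.9% held CAGACA and 20.6% held CAGGTG on either strand, so such matches are common. Neither motif was found in the windows of CEACAM7 and MUC4, which says only that these letters are not in them. The CEACAM windows resembled each other, with 75.9% identical alignment columns between CEACAM5 and CEACAM6, 81.4% between CEACAM5 and CEACAM7 and 67.1% between CEACAM5 and CEACAM1, whereas MUC1 shared 46.9% with CEACAM5.

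Expression of the 9 genes divided the 24 libraries. CEACAM5 and CEACAM6 were read in every sphere library and were at 0 counts in all 6 WT and SLUG KO libraries. There 3 counts would be 0.121 to 0.143 CPM before TMM scaling. MUC1 and MUC4, in contrast, were highest in the siSMAD2/3/4 libraries, followed by Csi, as the plot of all libraries shows.

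**Figure D1:**
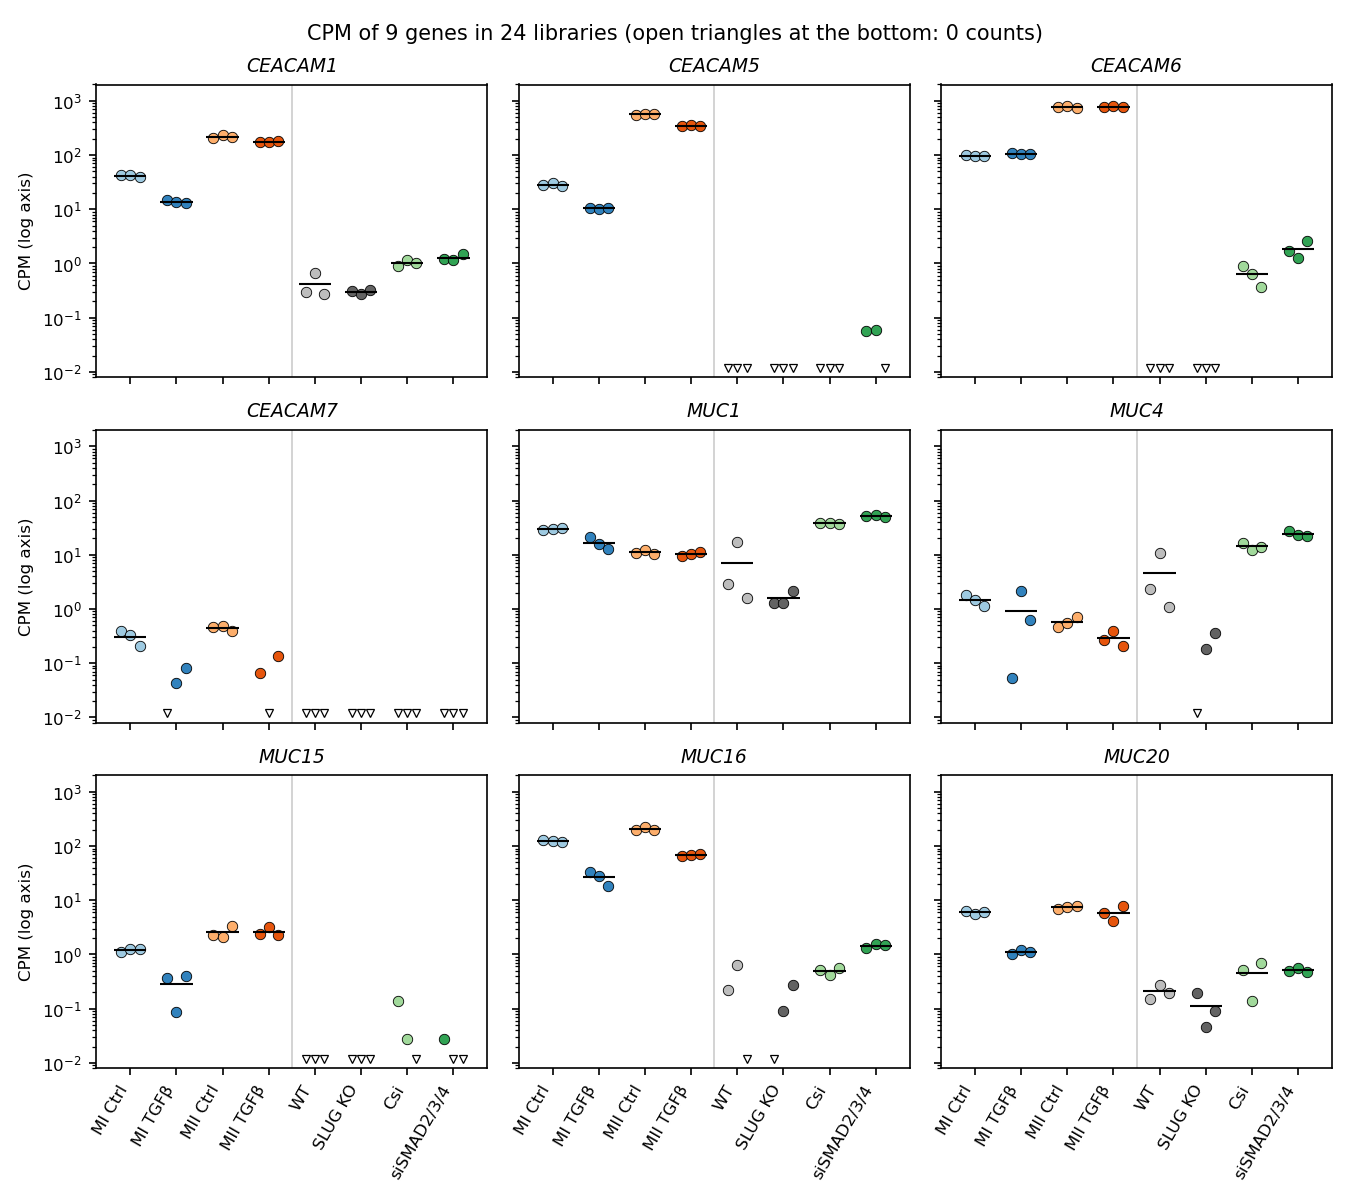
CPM of each gene (log axis) in the 24 libraries by group, with circles for libraries, open triangles for libraries at 0 counts, a horizontal line at the mean of groups in which all 3 libraries had a count, and a vertical line between spheres and monolayers. CEACAM1, CEACAM5, CEACAM6, MUC15, MUC16 and MUC20 are higher in both unstimulated sphere groups than in any MDA-MB-231 group, whereas MUC1 and MUC4 peak in the siSMAD2/3/4 libraries.

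CEACAM6 was the most abundant of the 9 genes in MI- and MII-spheres per length of transcript. In RPKM, CPM divided by the exonic length in kb, unstimulated MII-spheres had 257 ± 9.20 of CEACAM6, 142 of CEACAM5, 39.1 of CEACAM1, 4.69 of MUC16 and 2.35 of MUC1. Unstimulated MI-spheres had 33.0 RPKM of CEACAM6, 7.49 of CEACAM1, 7.15 of CEACAM5, 6.24 of MUC1 and 2.82 of MUC16. MUC16, which has 43830 exonic bases, thus ranked below CEACAM1 per length although more fragments were counted on it than on CEACAM1 in unstimulated MI-spheres. In the Csi libraries MUC1 led with 8.09 RPKM, followed by MUC4 with 0.676. Together the 9 genes took 329.6 ± 12.2 CPM before TMM scaling in unstimulated MI-spheres, 1889 ± 47.1 in unstimulated MII-spheres and 2.38 ± 0.783 in SLUG KO cells. CEACAM1, CEACAM5 and CEACAM6 made up 50.8 ± 0.595% (SD) of these counts in unstimulated MI-spheres, 87.1 ± 0.448% in unstimulated MII-spheres and 2.99 ± 0.413% in the Csi libraries.

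In the order of group means, CEACAM1, CEACAM5, MUC16 and MUC20 were highest in unstimulated MII-spheres and CEACAM6 and MUC15 in stimulated ones. The library ranges of CEACAM1 and of CEACAM5 did not overlap between any of the 4 sphere groups. Those of CEACAM6 and of MUC15 overlapped between stimulated and unstimulated MII-spheres, and those of MUC20 between unstimulated MI- and stimulated MII-spheres. For MUC1 the order ran from siSMAD2/3/4 over Csi, unstimulated MI- and stimulated MI- to MII-spheres without overlap, while both MII groups, WT and SLUG KO each overlapped with the next group. CEACAM7 had 0.442 ± 0.0491 CPM at most, in unstimulated MII-spheres, and its groups from stimulated MII-spheres downwards overlapped. Such levels are of the pooled RNA of a culture, in which fewer cells of a type and less RNA per cell cannot be told apart.

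The targeted genes and cell type markers were read in the same libraries. HRAS had 221 ± 6.03 CPM in unstimulated MII- and 40.7 ± 1.02 CPM in unstimulated MI-spheres. siSMAD2/3/4 libraries had 24.6 ± 0.538 CPM of SMAD2, 169.7 ± 5.72 of SMAD3 and 17.2 ± 1.04 of SMAD4, against 93.4, 275 and 57.1 CPM in Csi. SNAI2, the SLUG gene, had 61.8 ± 3.93 CPM in SLUG KO and 27.7 ± 6.84 CPM in WT libraries, and the RNA level of a gene cut in its first exon does not check the loss of its protein. KRT5, a basal keratin, was at 106.5 CPM in unstimulated MI- and 18.9 CPM in unstimulated MII-spheres. It had no count in WT or SLUG KO cells, in which VIM, a mesenchymal filament gene, reached 769.9 and 731 CPM. Of the 6 basal markers, edgeR called 4 lower and 1 higher in unstimulated MII- than MI-spheres, where 32.5% of all genes tested were lower and 31.7% higher. KRT14 had 1.56 CPM in MI and 8.44 CPM in MII, and ITGB4 had 462 and 463 CPM. In WT and SLUG KO cells ITGB4 had 341 and 392 CPM and LAMB3 518 and 607 CPM, while KRT14 and KRT17 had means below 1 CPM. WT replicate 2 stood apart, with Pearson's r of log2 CPM over genes of 0.952 and 0.957 against the other WT libraries, where the other 22 pairs within groups had 0.984 to 0.994. TGFβ-stimulated MI replicate 2 held counts of 147 olfactory receptor genes summing to 13.9 CPM, against 40 and 44 genes and 4.39 and 4.38 CPM in the other libraries of its group. Results that rest on either library are given with and without it.

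To ask how the HRAS-transformed line differs, unstimulated MII- and MI-spheres were compared. The 3 abundant CEACAMs were 5.23- to 19.8-fold higher in MII-spheres, while MUC1 and MUC4 were lower. CEACAM5 had 28.3, 30.2 and 27.0 CPM in the 3 MI libraries and 553, 574 and 566 CPM in the 3 MII libraries. CEACAM6 had 100.6, 96.8 and 95.5 CPM in MI and 754, 788 and 734 CPM in MII. CEACAM1 had 43.7, 42.0 and 38.6 CPM in MI and 204, 231 and 214 CPM in MII. Every MII library thus lay above every MI library for these 3 genes. The log2 fold-change was 4.31 (SE 0.045, edgeR adjusted p = 5.89e-57) for CEACAM5, 2.96 (SE 0.038, 2.09e-52) for CEACAM6 and 2.39 (SE 0.047, 9.88e-44) for CEACAM1, and the fold was 7.79 for CEACAM6. CEACAM7 was too low for the test, with 10, 7 and 4 counts in MI and 7, 14 and 7 counts in MII libraries.

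The mucins were divided. MUC16 was higher in MII-spheres, with 198, 223 and 196 CPM against 127, 123 and 120.8 CPM (log2 fold-change 0.74, SE 0.041, edgeR adjusted p = 5.44e-23). MUC15, a small membrane mucin, had 2.25, 2.11 and 3.31 CPM in MII against 1.12, 1.25 and 1.24 CPM in MI (log2 fold-change 1.08, SE 0.26, edgeR adjusted p = 2.51e-04). Both genes were higher in each MII library than in any MI library. MUC1 went the other way, with 10.6, 12.4 and 10.2 CPM in MII against 28.2, 29.3 and 30.8 CPM in MI (log2 fold-change -1.38, SE 0.08, edgeR adjusted p = 5.60e-22). MUC4, which can bind the receptor ERBB2, had 0.462, 0.546 and 0.716 CPM in MII against 1.77, 1.49 and 1.14 CPM in MI (log2 fold-change -1.36, SE 0.34, edgeR adjusted p = 4.78e-04). MUC1 and MUC4 were lower in each MII library than in any MI library. MUC20, an interactor of the receptor MET, had 7.0, 7.50 and 7.99 CPM in MII against 6.44, 5.53 and 5.96 CPM in MI (log2 fold-change 0.33, SE 0.13, edgeR adjusted p = 0.0205), and 5 alternatives, DESeq2 among them (adjusted p = 0.159), lost this call. In all, 6 of the 8 genes that passed the low-count filter were higher and 2 were lower in MII-spheres, in a comparison in which 31.7% of all genes tested were higher and 32.5% lower. Their median log2 fold-change was 0.91, against 0.02 over all genes tested.

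Markers of other cell types differed between the lines as well. The 6 goblet and secretory markers summed to 209 to 225 CPM in unstimulated MI- and 49.3 to 54.0 CPM in unstimulated MII-spheres. Of these sums AGR2 took 190.3 and 45.2 CPM, and the defining gel-forming mucin MUC2 0.0955 and 0.167 CPM. The 6 immune markers summed to 98.5 to 106.3 CPM in MI and 226 to 234 CPM in MII, of which CD14 took 101.5 and 193 CPM and LYZ 0.260 and 35.8 CPM, with PTPRC at 0 in MI and CD3E and HBB at 0 in MII. The 6 basal markers summed to 2623 to 2693 CPM in MI and 1248 to 1370.2 CPM in MII, and the 8 luminal ones to 1241 to 1282 and 2422 to 2522 CPM. Their part in the difference of the CEACAMs was not tested.

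With TGFβ the lines differed in the same CEACAMs. Stimulated MII-spheres had 348 ± 8.78 CPM of CEACAM5 against 10.4 ± 0.310 CPM in stimulated MI-spheres, and 175 ± 3.42 CPM of CEACAM1 against 13.7 ± 0.867 CPM. The log2 fold-change was 5.09 (SE 0.062, edgeR adjusted p = 8.46e-26) for CEACAM5, 3.71 (SE 0.065, 9.83e-23) for CEACAM1 and 2.88 (SE 0.051, 9.83e-23) for CEACAM6. MUC15, MUC20 and MUC16 were higher, by 3.21 (SE 0.40), 2.43 (SE 0.25) and 1.39 (SE 0.12), with edgeR adjusted p of 2.35e-07, 9.47e-09 and 1.13e-09. MUC1 was lower in stimulated MII-spheres (log2 fold-change -0.65, SE 0.15, edgeR adjusted p = 4.83e-04). Thus 6 of 7 genes tested were higher and 1 was lower, where 31.1% of all genes tested were higher and 31.6% lower. The median of the 7 was 2.88, against 0.00 over all genes tested. MUC4 did not pass the filter, and was called lower without it (log2 fold-change -1.72, edgeR adjusted p = 0.00416) and in the fit of all 12 sphere libraries (-1.70, 0.0203). DESeq2 did not call it (adjusted p = 0.141), nor did edgeR without stimulated MII replicate 1, 2 or 3 (adjusted p = 0.101, 0.0917 and 0.156). Of its 1, 50 and 15 counts in stimulated MI-spheres the 50 were those of replicate 2, and without that library MUC4 again did not pass the filter. These libraries also enter the TGFβ comparisons, so the comparisons are not independent.

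To follow the response to TGFβ, stimulated and unstimulated spheres of each line were compared. In MI-spheres 6 of the 9 genes fell with TGFβ, by 1.83- to 5.48-fold, while CEACAM6 was not called. CEACAM1 had 43.7, 42.0 and 38.6 CPM without and 14.6, 13.5 and 12.9 CPM with TGFβ. CEACAM5 had 28.3, 30.2 and 27.0 CPM without and 10.6, 10.0 and 10.5 CPM with TGFβ. MUC16 had 127, 123 and 120.8 CPM without and 33.3, 28.4 and 18.7 CPM with TGFβ. Stimulated libraries were below every unstimulated library in these 3 genes. The log2 fold-change was -1.63 (SE 0.079, edgeR adjusted p = 3.31e-13) for CEACAM1, -1.49 (SE 0.084, 3.77e-12) for CEACAM5 and -2.25 (SE 0.12, 1.09e-12) for MUC16.

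The other mucins of MI-spheres with a call were lower too. MUC20 had 6.44, 5.53 and 5.96 CPM without and 1.02, 1.20 and 1.11 CPM with TGFβ (log2 fold-change -2.45, SE 0.19, edgeR adjusted p = 6.13e-10), the largest log2 fold-change among the 8 genes tested. MUC15 had 29, 26 and 24 counts without and 7, 2 and 10 counts with TGFβ (log2 fold-change -2.08, SE 0.43, edgeR adjusted p = 3.35e-04). MUC1 had 28.2, 29.3 and 30.8 CPM without and 21.1, 16.1 and 12.6 CPM with TGFβ (log2 fold-change -0.87, SE 0.12, edgeR adjusted p = 2.43e-06). All 3 genes were lower in each stimulated library than in any unstimulated one, and MUC1 had the smallest change of them. CEACAM6 had 97.6 ± 2.66 CPM without and 106.6 ± 2.21 CPM with TGFβ (log2 fold-change 0.09, SE 0.052, edgeR adjusted p = 0.127), and was not called. Its highest unstimulated library, at 100.6 CPM, was below its lowest stimulated one, at 104.7 CPM. In 2 of 12 alternatives CEACAM6 was called higher, with all 12 sphere libraries (log2 fold-change 0.12, edgeR adjusted p = 0.0301) and without stimulated MI replicate 3 (0.12, 0.0366).

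MUC4 hung on 1 library. It had 46, 31 and 22 counts in unstimulated and 1, 50 and 15 counts in stimulated MI-spheres, and the 50 counts were those of replicate 2, the library with many olfactory receptor genes. Its log2 fold-change was -0.63 (SE 0.51, edgeR adjusted p = 0.303), and without that library it was -2.05 (edgeR adjusted p = 8.07e-04), the only alternative of 11 that called it. CEACAM7 did not pass the filter, with 21 counts summed over unstimulated and 3 over stimulated MI libraries, a ratio of 0.142 per library size (95% exact interval 0.0271 to 0.475, for counting error only). Of the 8 genes tested in MI-spheres, 0 were called higher and 6 lower, where 28.7% of all genes tested were higher and 27.4% lower. Their median log2 fold-change was -1.56, against -0.02 over all genes tested.

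Of the 7 genes that passed the filter in MII-spheres, MUC16 and CEACAM5 fell most with TGFβ, and CEACAM6, MUC1 and MUC15 were not called. MUC16 had 198, 223 and 196 CPM without and 66.9, 68.1 and 71.3 CPM with TGFβ (log2 fold-change -1.61, SE 0.046, edgeR adjusted p = 2.39e-34). CEACAM5 had 553, 574 and 566 CPM without and 347, 357 and 339 CPM with TGFβ (log2 fold-change -0.73, SE 0.035, edgeR adjusted p = 1.47e-24). CEACAM1 had 204, 231 and 214 CPM without and 173, 173 and 179 CPM with TGFβ (log2 fold-change -0.33, SE 0.04, edgeR adjusted p = 3.16e-10). Each stimulated library was below every unstimulated one in these genes. CEACAM6 had 754, 788 and 734 CPM without and 759.98, 800.2 and 759 CPM with TGFβ (log2 fold-change 0.00, SE 0.034, edgeR adjusted p = 1.00). MUC1 and MUC15 had log2 fold-changes of -0.15 (SE 0.11, edgeR adjusted p = 0.267) and 0.04 (SE 0.23, edgeR adjusted p = 0.888). The groups of CEACAM6, MUC1 and MUC15 overlapped. MUC20 had 7.0, 7.50 and 7.99 CPM without and 5.85, 4.17 and 7.78 CPM with TGFβ, overlapping values whose log2 fold-change of -0.37 (SE 0.15) passed with an edgeR adjusted p of 0.0344. That call was lost in 7 of 12 alternatives, among them DESeq2 (adjusted p = 0.226) and leaving out stimulated MII replicate 2 (log2 fold-change -0.16, edgeR adjusted p = 0.399).

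CEACAM7 had 28 summed counts in unstimulated and 3 in stimulated MII libraries, a ratio of 0.150 per library size (95% exact interval 0.0292 to 0.487). MUC4 had 7, 16 and 13 counts without and 4, 6 and 3 counts with TGFβ. Neither gene passed the filter in MII-spheres. Without the filter CEACAM7 was called lower in MI- (edgeR adjusted p = 0.0289) and in MII-spheres (0.0107), but DESeq2 gave 0.0823 and 0.0549. Of the 7 genes tested in MII-spheres, 0 were called higher and 4 lower, where 29.9% of all genes tested were higher and 27.6% lower, and their median log2 fold-change of -0.33 stood against -0.02 over all genes tested.

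**Figure D2:**
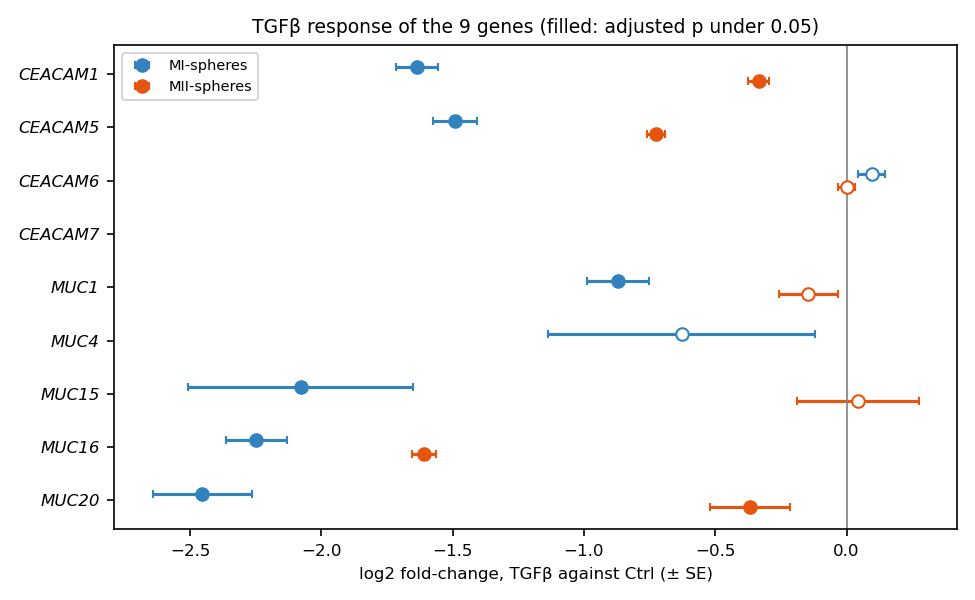
Log2 fold-change of each gene with TGFβ (± SE) in MI-spheres and MII-spheres, filled where the edgeR adjusted p was under 0.05, for genes that passed the low-count filter. MUC20 and MUC15 lie at -2.45 and -2.08 in MI- but at -0.37 and 0.04 in MII-spheres, whereas MUC16 lies at -2.25 and -1.61 and CEACAM6 at 0.09 and 0.00.

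The difference of the responses was tested directly, by an interaction term fitted to the 12 sphere libraries. For 6 of the 8 genes tested the response was more positive in MII- than in MI-spheres, and for 0 it was more negative, where 12.6% of all genes tested had a more positive and 9.75% a more negative response in MII-spheres. The difference was 2.12 (SE 0.48, edgeR adjusted p = 9.42e-04) for MUC15 and 2.10 (SE 0.26, edgeR adjusted p = 5.00e-08) for MUC20. CEACAM1 differed by 1.31 (SE 0.085, edgeR adjusted p = 2.08e-15) and CEACAM5 by 0.78 (SE 0.081, edgeR adjusted p = 6.57e-10). MUC1 and MUC16 differed by 0.73 (SE 0.17, edgeR adjusted p = 0.00109) and 0.65 (SE 0.13, edgeR adjusted p = 1.22e-04). In each of the 6 genes the fall on the log2 scale was thus the smaller one in MII-spheres, or absent from the calls there. This is a statement about ratios and not about differences in CPM. CEACAM6 and MUC4 had differences of -0.08 (SE 0.062, edgeR adjusted p = 0.379) and -0.35 (SE 0.82, edgeR adjusted p = 0.821), and without stimulated MI replicate 2 that of MUC4 was 1.03 (edgeR adjusted p = 0.387).

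Ratios of counts within a library do not depend on scaling. Per count of CEACAM6, its neighbour on the chromosome CEACAM5 had 0.282, 0.312 and 0.283 counts in unstimulated and 0.0969, 0.0955 and 0.0993 counts in stimulated MI libraries. In MII-spheres the ratio was 0.733, 0.728 and 0.771 without and 0.457, 0.446 and 0.447 with TGFβ. The 4 groups of 3 libraries were separate in this ratio, which was lower with TGFβ in each line. CEACAM1 per CEACAM6 was 0.424 ± 0.0173 without and 0.128 ± 0.00609 with TGFβ in MI-spheres, and 0.285 ± 0.0122 and 0.227 ± 0.0102 in MII-spheres. MUC16 per CEACAM6 was 1.27 ± 0.00610 and 0.251 ± 0.0672 in MI-spheres, and 0.271 ± 0.0110 and 0.0890 ± 0.00457 in MII-spheres. CEACAM5 per CEACAM1 ranged over 0.649 to 0.719 without and 0.722 to 0.813 with TGFβ in MI-spheres, and over 2.49 to 2.71 and 1.90 to 2.07 in MII-spheres.

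Fragments shared between related genes limit how sharply members can be told apart. Of the 50-base windows of the longest transcript, 4.18% of CEACAM1, 3.07% of CEACAM5 and 4.79% of CEACAM6 occurred in transcripts of other genes, and fragments that map to several places were not counted. MUC20 shared 26.7% of its windows with other genes, among them the pseudogene MUC20P1, and 27.1% of its exonic bases with other genes, among them MUC20-OT1 at 13.9 to 32.6 CPM over the 24 libraries. Fragments on both genes were not counted, so the level of MUC20 is uncertain. CEACAM1 overlaps LIPE-AS1 (at most 2.44 CPM) and MUC15 overlaps ANO3 (at most 0.256 CPM) on the opposite strand, which the counting did not separate. The gene ENSG00000267881, which overlaps CEACAM5 and CEACAM6, had no count in any library.

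In MDA-MB-231 cells MUC1 and MUC4 alone of the 9 genes had a mean above 1 CPM in WT cells, and the comparison with SLUG KO cells turned on a single WT library. MUC1 had 2.88, 16.9 and 1.62 CPM in WT and 1.31, 1.31 and 2.14 CPM in SLUG KO libraries. MUC4 had 62, 268 and 28 counts in WT and 0, 4 and 8 counts in SLUG KO libraries. Both genes were highest in WT replicate 2, and the groups overlapped for MUC1 but not for MUC4. The log2 fold-change was -2.25 (SE 0.87) for MUC1 and -4.77 (SE 1.17) for MUC4, with edgeR adjusted p of 0.225 and 0.0844 and unadjusted p of 0.0344 and 0.00418 from the same edgeR fit. Thus 0 of the 2 genes tested were called by edgeR, which called 1.45% of all genes tested higher and 1.89% lower. DESeq2 called both (adjusted p = 0.0491 for MUC1 and 0.0262 for MUC4), and so did edgeR without the low-count filter (0.0455 and 7.94e-04). Without WT replicate 2 the log2 fold-change was -0.54 for MUC1 (edgeR adjusted p = 0.222) and -3.29 for MUC4, which was then called (7.74e-04).

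WT replicate 2 also had 79.2 CPM of SMAD2 and 31.1 CPM of SMAD4, against 143 and 143 CPM and 63.6 and 67.4 CPM in replicates 1 and 3. Its 6 basal markers summed to 1306 CPM, against 609.8 and 666 CPM, of which ITGB4 took 634 CPM, against 198 and 191 CPM. Its goblet and secretory markers summed to 47.2 CPM, against 40.0 and 45.3 CPM, but single genes went opposite ways. SPDEF had 36.7 CPM in it, against 15.6 and 18.2 CPM in replicates 1 and 3. AGR2 had 3.46 CPM, against 8.87 and 8.93 CPM, and SPINK4 5.48 CPM, against 12.7 and 14.6 CPM. The part of this library's makeup in MUC1 and MUC4 was not tested. The other members had few or no counts in both groups. CEACAM1 had 8, 17 and 7 counts in WT and 8, 6 and 7 in SLUG KO libraries, MUC16 had 6, 16 and 0 against 0, 2 and 6, and MUC20 had 4, 7 and 5 against 5, 1 and 2. CEACAM5, CEACAM6, CEACAM7 and MUC15 had no count in any WT or SLUG KO library, so a difference was not detectable at this depth.

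Silencing of SMAD2, SMAD3 and SMAD4 was compared with Csi in the same line, without added TGFβ, and all 4 genes that changed were higher. MUC4 had 16.6, 12.2 and 13.9 CPM in Csi and 27.5, 23.2 and 22.5 CPM in siSMAD2/3/4 libraries (log2 fold-change 0.79, SE 0.095, edgeR adjusted p = 4.72e-08). MUC1 had 38.6, 38.4 and 37.4 CPM in Csi and 50.8, 54.2 and 50.3 CPM in siSMAD2/3/4 libraries (log2 fold-change 0.44, SE 0.055, edgeR adjusted p = 1.00e-07). CEACAM6 had 26, 23 and 13 counts in Csi and 60, 42 and 82 counts in siSMAD2/3/4 libraries (log2 fold-change 1.58, SE 0.32, edgeR adjusted p = 1.86e-04). In each of these genes every siSMAD2/3/4 library was above every Csi library. MUC16 also rose, from 15, 15 and 20 counts to 46, 53 and 46 counts (log2 fold-change 1.55, SE 0.31, edgeR adjusted p = 1.66e-04). CEACAM6 and MUC16 thus had the larger folds, 2.99 and 2.93, but at levels of 1.85 ± 0.697 and 1.45 ± 0.148 CPM, against 773 ± 23.6 and 68.8 ± 2.32 CPM in stimulated MII-spheres.

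CEACAM1 had 0.890, 1.15 and 1.01 CPM in Csi and 1.21, 1.17 and 1.47 CPM in siSMAD2/3/4 libraries and was not called (log2 fold-change 0.33, SE 0.27, edgeR adjusted p = 0.373). MUC20 overlapped between the groups and was not called (log2 fold-change 0.22, SE 0.45, edgeR adjusted p = 0.756). CEACAM5 had 2, 2 and 0 counts in siSMAD2/3/4 and none in Csi libraries, MUC15 had 1, 0 and 0 against 4, 1 and 0, and CEACAM7 had no count in either group. Of the 6 genes tested, 4 were called higher and 0 lower, where 16.3% of all genes tested were higher and 19.7% lower. The median log2 fold-change of these 6 genes was 0.62, against 0.00 over all genes tested. Goblet and secretory markers summed to 102.9 to 107.2 CPM in Csi and 106.05 to 114 CPM in siSMAD2/3/4 libraries, and luminal markers to 1878 to 1964 and 2229 to 2294 CPM, and their part in the rise of the mucins was not tested. siSMAD2/3/4 replicates 1 and 2 were read on another flow cell than replicate 3 and the Csi libraries. A fit with flow cell as a term compares only siSMAD2/3/4 replicate 3 with Csi, so it cannot check the 4 calls.

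**Figure D3:**
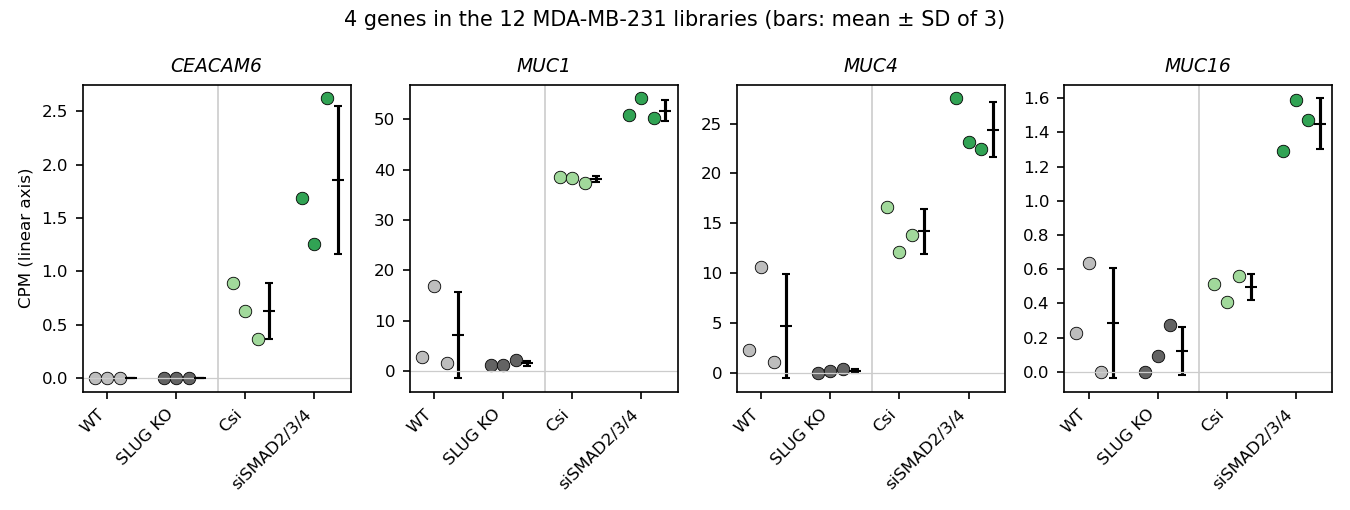
CPM (linear axes) of CEACAM6, MUC1, MUC4 and MUC16 in the 12 MDA-MB-231 libraries, with circles for libraries and bars for mean ± SD of 3, and a vertical line between the sequencing batches. WT replicate 2 is the high WT library for MUC1 (16.9 CPM) and MUC4 (10.6 CPM), and every siSMAD2/3/4 library is above every Csi library in the 4 genes.

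Csi and WT cells are the same line, yet MUC1 was at 38.1 ± 0.613 CPM in Csi and 7.14 ± 8.49 CPM in WT libraries, MUC4 at 14.2 ± 2.26 and 4.69 ± 5.19 CPM, and CEACAM6 at 0.628 ± 0.263 and 0 CPM. The WT means of MUC1 and MUC4 rest on replicate 2, as the other WT libraries had 2.88 and 1.62 CPM of MUC1 and 2.32 and 1.11 CPM of MUC4. Among secreted mucins MUC5AC had 11.5 and 0.459 CPM. These levels are no test of transfection, since it cannot be told apart from the batch.

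Other genes of the families and of their pathway were read from lists, whose counts stand beside the shares of all genes given above. Of 8 other CEACAM genes 1, CEACAM19, was tested, with 3.89 CPM in unstimulated MI-spheres and a log2 fold-change of 0.41 with TGFβ there (edgeR adjusted p = 0.0452). PSG4, one of the pregnancy-specific glycoprotein genes, which belong to the CEACAM family, was higher in MII- than in MI-spheres by 1.87 (edgeR adjusted p = 1.02e-06). In SLUG KO cells 3 of the 5 PSG genes tested were higher, PSG4 by 2.27, PSG1 by 3.95 and PSG5 by 1.72. Of 9 other membrane mucins, CD164 was the most abundant in spheres, with 348 CPM in unstimulated MI- and 1080.4 CPM in unstimulated MII-spheres, and it fell with siSMAD2/3/4 (log2 fold-change -0.85, edgeR adjusted p = 7.18e-16). MUC21 had a log2 fold-change of -2.12 with TGFβ in MI-spheres (edgeR adjusted p = 6.30e-04), from 0.728 CPM.

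Secreted mucins, among them those of the mucus gel, were read beside the membrane mucins. In MI-spheres 3 of the 5 tested fell with TGFβ and 0 rose, with log2 fold-changes of -2.97 for MUC5AC, -1.75 for MUC5B and -1.40 for OVGP1. In MII-spheres 4 of 5 fell and 0 rose, with -1.56 for MUC5AC and -0.26 for MUC5B. The median over the 5 genes was -1.40 in MI- and -0.72 in MII-spheres. MUC5B was higher by 3.03 in unstimulated MII- than MI-spheres, and MUC5AC rose by 1.06 with siSMAD2/3/4 (edgeR adjusted p = 5.05e-10).

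Mucin O-glycans are begun by the GALNT enzymes and extended by core, sialyl- and fucosyltransferases. Of 11 GALNT genes tested in MI-spheres, 7 rose with TGFβ and 3 fell, with GALNT6 at 1.20 and GALNT12 at -2.07. Of 10 in MII-spheres, 7 rose and 0 fell, with GALNT6 at 0.88 and GALNT1 at 0.43. Of 13 genes for cores and caps tested, 4 rose and 8 fell in MI-spheres, among the latter GCNT3, which makes mucin-type branches, at -2.98 and ST3GAL4 at -1.26, whereas 5 rose and 5 fell in MII-spheres. Between unstimulated MII- and MI-spheres the log2 fold-change was 3.93 for GCNT3 (edgeR adjusted p = 4.01e-43) and -6.43 for GALNT5 (2.84e-24). With siSMAD2/3/4, 1 of 13 GALNT genes rose and 7 fell, with GALNT3 at -1.14.

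Of the genes for partners and sheddases of these proteins, MSLN, whose product mesothelin binds MUC16, had a log2 fold-change of -1.57 with TGFβ in MI-spheres and of -7.49 between unstimulated MII- and MI-spheres (edgeR adjusted p = 3.54e-13 and 8.11e-45). LGALS1, a galectin, had log2 fold-changes of 2.31 in MI- and 0.62 in MII-spheres with TGFβ, and the receptor gene ERBB3 of -1.19 and -0.55. In all, 6 of 14 such genes rose and 6 fell in MI-spheres, and 5 of 13 rose and 2 fell in MII-spheres. Of the transcription factors of mucosal and glandular epithelium, 0 of 8 rose and 7 fell in MI-spheres, with KLF4 at -2.0, ELF3 at -1.05, FOXA1 at -1.15 and SPDEF at -1.38. In MII-spheres 2 of 9 rose and 4 fell, with KLF4 at -0.70, ELF3 at -0.43 and SPDEF at 1.00. Goblet and secretory markers summed to 209 to 225 CPM without and 110.98 to 126 CPM with TGFβ in MI-spheres, and to 49.3 to 54.0 and 149 to 154 CPM in MII-spheres. AGR2 took most of these sums, at 190.3 and 106.6 CPM in MI- and 45.2 and 139.8 CPM in MII-spheres. Only 3 of the 6 goblet and secretory markers were tested in each line, of which 2 were called lower in MI- and 2 higher in MII-spheres. The 6 mesenchymal markers summed to 58.8 to 64.0 CPM without and 259 to 287 CPM with TGFβ in MI-spheres, and to 140.3 to 148 and 164 to 177 CPM in MII-spheres. Basal markers summed to 2623 to 2693 and 4340.1 to 4639.6 CPM in MI- and to 1248 to 1370.2 and 2461 to 2687 CPM in MII-spheres. Luminal markers summed to 1241 to 1282 and 1462 to 1583 CPM in MI- and to 2422 to 2522 and 2966 to 3150.3 CPM in MII-spheres, and the ranges of the immune markers overlapped in each line. The mesenchymal, basal and luminal sums were thus higher with TGFβ in both lines, but a sum follows its most abundant genes. Of 6 basal markers, 5 were called higher in each line. Mesenchymal markers called higher were 4 of 6 tested in MI- and 2 of 5 in MII-spheres. Luminal ones were 3 of 6 tested in MI- and 4 of 8 in MII-spheres, and 1 was called lower in each line. ESR1 had 7.65 CPM without and 2.33 CPM with TGFβ in MI-spheres. The part of any of these lists in the fall of MUC16, CEACAM1 and CEACAM5 was not tested. In SLUG KO cells SPDEF had a log2 fold-change of -6.25 (edgeR adjusted p = 0.00182).

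Genes whose log2 CPM followed a member most closely over the 24 libraries were named as a description. The libraries share lines and culture, and fall into 12 of spheres and 12 of monolayers. For CEACAM5 these genes were DOCK8-AS1, KLK7 and ATP10B (Pearson's r = 0.998, 0.996 and 0.995, n = 24 libraries, of 18041 genes compared), for CEACAM6 ZMAT3, CD14 and TRIM22 (r = 0.994, 0.993 and 0.992), and for CEACAM1 KLHDC7A, WFDC2 and TMCC1 (r = 0.992, 0.990 and 0.990). MUC1 was followed by MST1R, PIK3C2B and TNS4 (r = 0.982, 0.969 and 0.966) and MUC4 by IKZF4, ADGRL1 and GATAD2B (r = 0.943, 0.930 and 0.923). For MUC16 they were MLYCD, FER1L4 and BHLHE41 (r = 0.986, 0.985 and 0.982), for MUC20 CORO2A, ST3GAL4 and ENSG00000231683 (r = 0.975, 0.975 and 0.974), and for MUC15 ENSG00000231683, COLEC10 and CPEB4 (r = 0.983, 0.978 and 0.977). CEACAM7, below 1 CPM in every group, was left out. Among the members, CEACAM1 and CEACAM5 followed each other with r = 0.987, and MUC1 and MUC4 with r = 0.681. CEACAM1 also followed MUC15, MUC16 and MUC20 (r = 0.968, 0.965 and 0.960), but not MUC1 and MUC4 (r = 0.241 and -0.383).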

How the data were processed

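RNA-seq of ribosome-depleted, stranded libraries was analysed in 24 samples. The deposited values are counts of fragments per gene, which the authors made by trimming with Trimmomatic, aligning to GRCh38.p13 with STAR and counting exons of GENCODE 38 with featureCounts 2.0.0 (minimum mapping quality 30, strand ignored per the file headers). Fragments mapping to several places or overlapping several genes were not counted, which lowers counts of near-identical and overlapping genes. The authors' versions of Trimmomatic and STAR are not given in the sources used here. ATAC-seq samples (16) were not used here.

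Symbols came from GENCODE 44, which held 60463 of the 60708 gene identifiers. Groups came from the labels. Counts per comparison were filtered (filterByExpr), scaled (TMM) and tested by the two-sided quasi-likelihood test of edgeR 4.0.16 (R 4.3.3, limma 3.58.1) over all genes, with Benjamini-Hochberg adjustment and a threshold of 0.05. Each comparison fitted its own 6 libraries, the interaction all 12 sphere libraries. Totals of 14124688 to 38406952 set the precision, and intervals and floors of 3 counts cover counting error only. Log2 CPM for correlations took a prior count of 2, over genes with a group mean of at least 1 CPM. Alternatives were leaving out each library, DESeq2 1.42.0, edgeR with the size factors of DESeq2, a filter of 10 counts in every library or none, a replicate block, a term for the flow cell, and 1 fit of all 12 sphere libraries. The scripts (Python 3.11.15, pandas 2.3.3, numpy 2.4.6, Biopython 1.88, matplotlib 3.10.9) were tested on simulated counts.

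The members and lists were chosen with earlier results of these data known. Named were the 9 members in every comparison and, of each list, at most 4 called genes per comparison with the smallest adjusted p. The most similar genes were the 3 with the highest Pearson's r to each member.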

Additional observations from a re-analysis of the deposited data

Results flagged for a closer look

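The TGFβ response differed between MII- and MI-spheres for 6 members by the interaction test of edgeR, and these are listed for that reason. In each the difference, MII minus MI on the log2 scale, was positive, at 2.12 for MUC15, 2.10 for MUC20, 1.31 for CEACAM1, 0.78 for CEACAM5, 0.73 for MUC1 and 0.65 for MUC16. Without stimulated MI replicate 2, the library with many olfactory receptor genes, all 6 were still called, at 1.64, 2.13, 1.28, 0.72, 0.69 and 0.68 in the same order. Single genes were not screened for outlying libraries, since each group holds 3.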

How the results depend on the processing

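Of the log2 fold-changes of members recomputed under alternatives, 553 kept direction and side of the threshold, 8 gained and 12 lost a call, and 9 changed sign, none of which was called under either setting; the cause was not tested. With TGFβ in MII-spheres, CEACAM6 turned to -0.0013 with DESeq2 size factors, -0.038 with at least 10 counts in every library, -0.012 without unstimulated replicate 3 and -0.017 without stimulated replicate 2, and ran up to 0.027 leaving out another. MUC15 turned to -0.0056 and -0.12 without unstimulated replicates 1 and 2 and -0.13 without stimulated replicate 2, and ran up to 0.27. The interaction of MUC4 turned to 1.03 without stimulated MI replicate 2 and was -0.89 at its lowest, without replicate 1. MUC20 with siSMAD2/3/4 ran from -0.24 without Csi replicate 2 to 0.72 without Csi replicate 3.

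The number of members called higher with TGFβ in MI-spheres was 1 with all 12 sphere libraries, and 0 to 1 leaving out a replicate. Members lower in unstimulated MII-spheres were 1 with at least 10 counts in every library, since MUC4 was then not tested. Members lower in stimulated MII-spheres were 2 without the filter and with all 12 sphere libraries. With SLUG KO 2 members were lower by DESeq2 and 2 without the filter, and 0 to 1 leaving out a replicate, the 1 being MUC4 without WT replicate 2. Over the alternatives the adjusted p with SLUG KO ran from 0.0455 to 0.526 for MUC1 and from 7.74e-04 to 0.290 for MUC4. The interaction of MUC16 ran from 0.40 to 0.77, called in all 17 alternatives. With size factors 6 of 72 group means moved by over 1 SD.

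Deviations of same-numbered libraries from their group means correlated at -0.123 to 0.0320. No shared effect of the number was seen, but this cannot tell whether such libraries were handled together. The replicate block changed no call of a member, with 6 members lower with TGFβ in MI- and 4 in MII-spheres, MUC1 at -1.52 and MUC4 at -4.39 with SLUG KO. With 3 libraries a group, and genes near 3 counts in a library, small changes of CEACAM7, MUC4 and MUC15 in spheres could not be seen.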

Other observations

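The genes of the stretch that holds the CEACAMs, chosen for this look after the values of the CEACAMs were seen, were compared between unstimulated MII- and MI-spheres. Between chr19:41549518-42561234 on GRCh38, 21 genes had a mean of at least 1 CPM in a sphere group. Of these, 18 are not members, and all 18 lie between CEACAM6 and CEACAM1. In MII-spheres 3 of the 18 were higher and 7 lower, where 31.7% of all genes tested were higher and 32.5% lower. Their median log2 fold-change was -0.05 and their range -1.04 to 1.66, against 2.39 to 4.31 for CEACAM1, CEACAM5 and CEACAM6.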
